A study of Mus musculus with 7 samples.

Results

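Enzymes and a regulator of the pathways that make serine, glycine, proline and asparagine were followed in mouse breast stroma: 10 genes of the 24421 symbols in the deposited count table. They were taken by symbol: Phgdh, Psat1, Psph, Shmt1, Shmt2, Mthfd2, Aldh18a1, Pycr1, Asns and Atf4. The question put to them was the supply of amino acids for collagen synthesis. A pair of groups of BALB/c mouse cells were compared. The pCAF group (3 libraries) came from mammary tumors of females injected at 8 weeks, the age given for this group, in the lower left fat pad with 100000 4T1-luc cells (a mouse mammary carcinoma line that carries luciferase); tumors were taken at 1 cm. These cells were sorted without Ter119, CD45 and EpCAM and with podoplanin (PDPN), a fibroblast surface protein that lymphatic endothelium also carries. The NMF group (4 libraries) came from normal mammary fat pads of untreated mice, labelled 12 weeks old, and was sorted without the same 3 markers and with no choice on PDPN. Both groups are labelled non-immune stromal cells. The series text calls the mice age matched although the labelled ages differ, and the tissues were digested with different collagenase mixtures. The selection field of pCAF replicate 3 reads PDPN negative, while its title and source name place it in pCAF, where it was kept. Whether a library is 1 animal or a pool was not given in the sources used here, so p-values measure only the spread between these libraries.

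Collagen is rich in glycine and proline. Glycine comes from serine, which cells build from a glycolytic intermediate through PHGDH, PSAT1 and PSPH; the serine hydroxymethyltransferases SHMT1 (cytosol) and SHMT2 (mitochondria) then split serine into glycine and a one-carbon unit, which mitochondrial MTHFD2 oxidizes on its folate carrier. Proline is built from glutamate by ALDH18A1 and the PYCR reductases, and asparagine from aspartate by ASNS. ATF4 is a transcription factor whose protein rises by translational control when amino acids are short, and genes of all these arms are among its known targets.

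Counts are of 3' ends, so each value is a level of that gene's messenger RNA in CPM, its counts scaled to a common library size, and is compared between libraries, not between genes. Total counts ran from 1885039 to 4990070 per library. A pair of libraries stood apart. Replicate 1 of pCAF detected 11090 genes, the fewest, and replicate 4 of NMF was the deepest. Where a call, a direction or a count changed without them, the value without them is given. In the pCAF libraries, summed blood endothelial markers lay at 50.5 to 70.95 CPM against 2792 to 6130 CPM in NMF, with 12 of 12 tested markers lower. Adipocyte markers lay at 7.21 to 68.7 CPM against 1990 to 15509 CPM (6 of 6 tested lower; Plin1, Cidec and Lep at 0 in pCAF). Schwann cell markers lay at 4.99 to 16.3 CPM against 259 to 1011 CPM (5 of 5 tested lower; Sox10 and Cdh19 at 0 in pCAF). Fibroblast markers lay at 71193 to 82258 CPM against 22965 to 42530 CPM (5 of 10 tested higher, 0 lower). Leukocyte markers lay at 81.5 to 206 CPM against 24.5 to 231 CPM (2 of 7 tested lower; Ptprc at 0 in pCAF), and epithelial and tumor markers at 109 to 272 CPM against 192 to 589 CPM (4 of 8 tested lower; Krt5 at 0 in pCAF). Pericyte and smooth muscle markers (1 higher and 3 lower of 8) and lymphatic markers (1 higher and 1 lower of 3; Ccl21a at 0 in pCAF) overlapped between the groups. Without both libraries that stood apart, the fibroblast list had 8 higher and 1 lower, and the pericyte list 2 higher and 4 lower. In that fit the lymphatic list had 2 higher, the leukocyte list 5 lower, and the epithelial and tumor list 5 lower. The part of these cell types in the differences below was not tested, and fewer cells of a type cannot be told apart from less RNA per cell.

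The promoters of the members were read from RefSeq (GRCm38.p6, the mm10 assembly), where all 10 matched with 11 start sites; each window held the 250 bases before a start. The element bound by ATF4 with C/EBP partners was searched as TGATGNAA on both strands (TTNCATCA when reversed). It was found in 2 of the 11 windows, and in 1134 of 32851 mouse promoter windows (3.45%). Both matches are shown in capitals within 30 bases of the gene's own strand. The Pycr1 match begins 103 bases before the start site, outside annotated exons. The Asns match begins 23 bases before the RefSeq start, inside an exon of the GENCODE annotation.
Pycr1 chr11:120643833-120643862 (minus strand): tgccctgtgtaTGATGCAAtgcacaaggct
Asns chr6:7693214-7693243 (minus strand): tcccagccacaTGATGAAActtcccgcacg
Neither window of Psat1 nor that of Mthfd2, the members that passed the test below, held this motif; this says only that these letters are absent from these windows. Their windows are shown because their messages rose. The 2 bases of the Mthfd2 window next to the start site lie in an annotated exon and are left out. Capitals mark CCAAT boxes, the short element bound by NF-Y, on either strand (CCAAT, or ATTGG when reversed; the motifs searched do not overlap here). The Psat1 window of the upstream start holds 2 and the Mthfd2 window 3. At least 2 boxes stood in 6 of the 11 member windows and in 3315 of all windows (10.1%); at least 1 stood in 7 and in 33.8%. The windows of Phgdh, Psph, Pycr1 and Atf4, none of them called, held 2 each. The second Psat1 window held 0.
Psat1 chr19:15925060-15925309 (minus strand): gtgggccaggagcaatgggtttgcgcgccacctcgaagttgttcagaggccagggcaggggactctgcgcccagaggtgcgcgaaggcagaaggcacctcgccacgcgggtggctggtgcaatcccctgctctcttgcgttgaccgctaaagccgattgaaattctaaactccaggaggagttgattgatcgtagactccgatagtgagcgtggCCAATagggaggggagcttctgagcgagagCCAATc
Mthfd2 chr6:83317607-83317854 (minus strand): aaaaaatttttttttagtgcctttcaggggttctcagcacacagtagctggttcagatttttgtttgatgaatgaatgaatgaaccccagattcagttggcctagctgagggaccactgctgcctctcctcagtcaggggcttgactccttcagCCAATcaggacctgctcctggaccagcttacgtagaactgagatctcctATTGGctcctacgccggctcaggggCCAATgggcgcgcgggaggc

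Of the 10 genes, 8 had enough counts to be tested and Shmt1 and Pycr1 did not. Psat1 and Mthfd2 were higher in pCAF (edgeR quasi-likelihood test, Benjamini-Hochberg adjusted p under 0.05), and 0 were lower, while 14.3% of all 10535 tested genes were called higher and 14.2% lower. At an unadjusted p under 0.05 stood 6 of the 8, against 40.1% of all genes. The median log2 fold change of the 8 was 1.00, against -0.02 over all tested genes, and the sign was positive in 8 of 8. In 4 of the 8 (Psat1, Mthfd2, Aldh18a1 and Atf4) the lowest pCAF library exceeded the highest NMF library, which held for 19.0% of all tested genes. In a fit chosen after seeing the data, pCAF replicate 1 and NMF replicate 4 were both left out. There 7 of the 8 were called higher, all but Phgdh. In that fit the share called higher among all genes was 25.9% and the share called lower 26.9%.

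**Figure D1:**
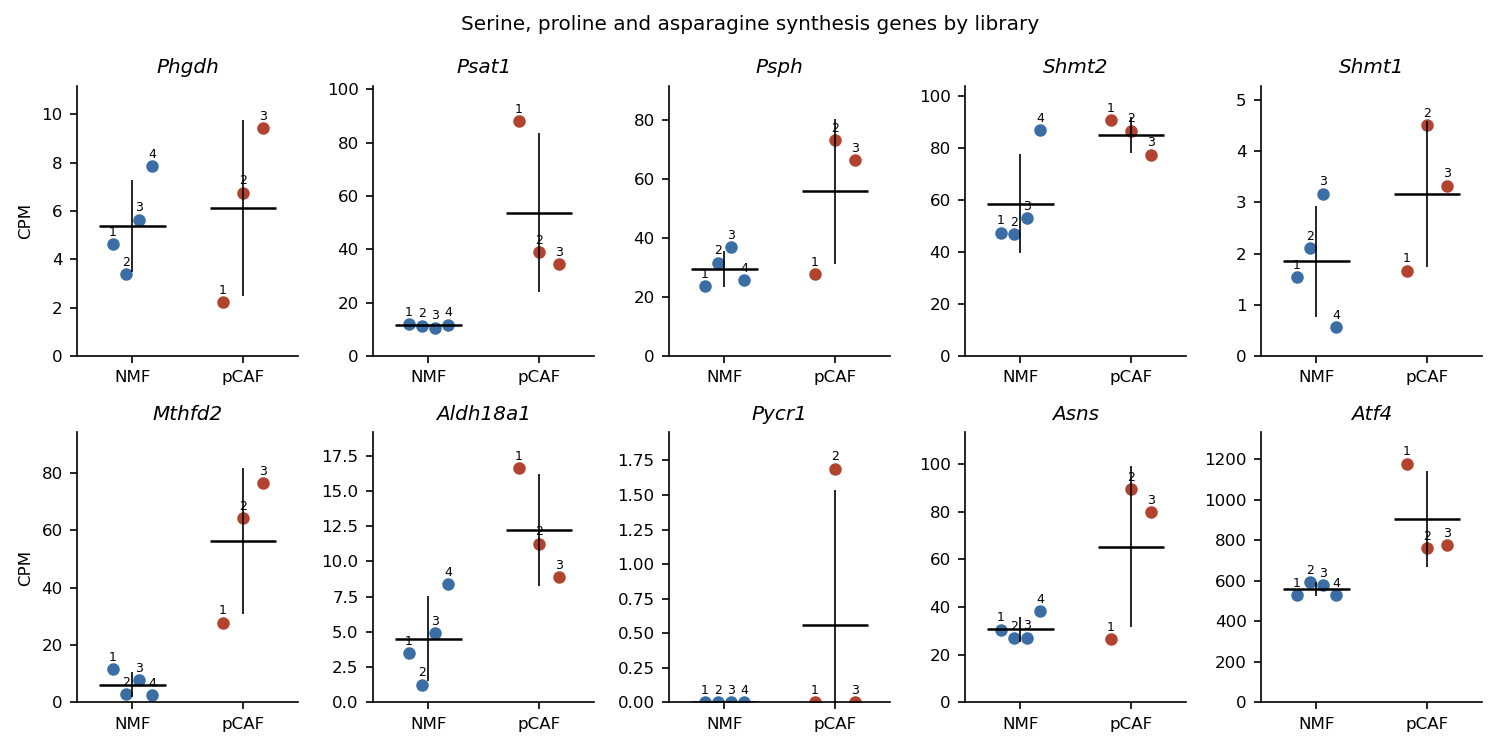
Level of each of the 10 genes in CPM by library, 3 pCAF and 4 NMF; each point is 1 library, numbered by replicate, with horizontal lines at group means and vertical lines for the SD. Psat1, Mthfd2, Aldh18a1 and Atf4 show no overlap between the groups, and Pycr1 has counts in 1 library alone.

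In the serine arm, Psat1 was higher in pCAF, and Phgdh and Psph did not pass. Psat1 encodes the aminotransferase of the pathway's middle step (chr19:15904678-15947337, minus strand, mm10). It stood at 88.2, 38.9 and 34.4 CPM in pCAF replicates 1 to 3 and at 11.97, 11.4, 10.6 and 11.8 CPM in NMF replicates 1 to 4. The NMF libraries lay within a narrow band, and the lowest pCAF library was well above it. The means were 53.8 ± 29.9 (SD, n = 3) and 11.4 ± 0.623 CPM (SD, n = 4). The fitted fold was 4.69 (95% interval 2.62 to 8.39; log2 2.23, SE 0.38; edgeR adjusted p = 0.00188). Replicate 1 of pCAF was the highest, and without it the fold was 3.18 (edgeR adjusted p = 9.104e-04). Psat1 passed under all 16 alternative analyses run, with adjusted p between 3.769e-06 and 0.01566.

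Phgdh encodes the dehydrogenase of the first step (chr3:98313170-98339990, minus strand). It was at 2.22, 6.76 and 9.42 CPM in pCAF and at 4.64, 3.38, 5.63 and 7.84 CPM in NMF. These levels rest on 4 to 42 counts per library, and the groups overlap over nearly their whole range. The fold was 1.12 (95% interval 0.443 to 2.85; edgeR adjusted p = 0.866), so a rise or fall of about 2-fold lies within the interval. The last 300 bp of both its coding transcripts match 13 annotated copies, among them Phgdh-ps1, at 95% identity or more over at least 80 bp, so its reads could be split or discarded by the counting.

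Psph encodes the phosphatase of the last step (chr5:129765558-129787449, minus strand). It was at 27.7, 73.2 and 66.5 CPM in pCAF and at 23.6, 31.7, 37.0 and 25.6 CPM in NMF. Replicates 2 and 3 of pCAF lay above all NMF libraries, and replicate 1 lay among them. The fold was 1.897 and did not pass (log2 0.92, SE 0.36; edgeR adjusted p = 0.0833). Without pCAF replicate 1 it passed at 2.37-fold (edgeR adjusted p = 0.00371), in a fit that called 18.3% of genes higher.

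Of the serine hydroxymethyltransferases, Shmt2 (chr10:127517123-127522444, minus strand) was at 90.95, 86.8 and 77.6 CPM in pCAF and at 47.5, 46.9, 53.2 and 87.0 CPM in NMF. The groups overlap through NMF replicate 4 alone. The fold was 1.45 and did not pass (log2 0.53, SE 0.29, 95% interval -0.11 to 1.17; edgeR adjusted p = 0.197). Without NMF replicate 4 it passed (log2 0.81; edgeR adjusted p = 0.0288; 15.1% of genes called higher in that fit). The 3' end of Shmt2 overlaps Ndufa4l2 on the other strand. Whether counting used strand was not given in the sources used here, so reads of these genes may not be told apart; Ndufa4l2 itself was called 3.76-fold higher (log2 1.91; edgeR adjusted p = 0.00642; log2 1.15 without pCAF replicate 1).

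The cytosolic form, Shmt1 (chr11:60788104-60811718, minus strand), had 3, 8 and 6 counts in pCAF and 4, 5, 9 and 3 in NMF, too few to pass the filter. Its totals were 17 and 21 counts, and its 3' end overlaps Smcr8 on the other strand. The log2 ratio of Shmt2 to Shmt1 counts was 4.72 ± 0.73 in pCAF (SD, n = 3) and 5.04 ± 1.38 in NMF (SD, n = 4). The groups overlapped (difference -0.32; exact two-sided permutation p = 0.857, and 0.857 after adjustment over 3 ratios). With 3 against 4 libraries this test cannot go below 0.0571.

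Mthfd2 showed the largest fitted fold among the 8 tested members. It encodes a mitochondrial folate dehydrogenase that is low in most adult tissues and high in dividing cells (chr6:83305691-83325908, minus strand). It was at 27.7, 64.2 and 76.5 CPM in pCAF and at 11.6, 2.96, 7.74 and 2.62 CPM in NMF. The NMF levels rest on 30, 7, 22 and 14 counts. All 3 pCAF libraries lay above all 4 NMF libraries, with pCAF replicate 1 the lowest of its group. The means were 56.1 ± 25.4 (SD, n = 3) and 6.23 ± 4.27 CPM (SD, n = 4). The fold was 9.15 (95% interval 3.84 to 21.8; log2 3.19, SE 0.56; edgeR adjusted p = 0.00235), and it passed under all 16 alternatives (log2 2.91 to 3.67).

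Mthfd1, the cytosolic folate enzyme, did not pass (32.6 ± 7.92 CPM in pCAF, SD, n = 3, and 23.8 ± 7.28 CPM in NMF, SD, n = 4; fold 1.36; edgeR adjusted p = 0.370; without both libraries that stood apart, log2 0.80 and 0.0160). The log2 ratio of Mthfd2 to Mthfd1 counts was 0.12, 0.64 and 1.29 in pCAF and -1.10, -2.43, -1.33 and -3.63 in NMF. The lowest ratio in pCAF lay above the highest in NMF. The difference in the log2 ratio was 2.81, at the smallest p this design allows (exact two-sided permutation p = 0.0571; 0.0857 after adjustment over 3 ratios).

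**Figure D2:**
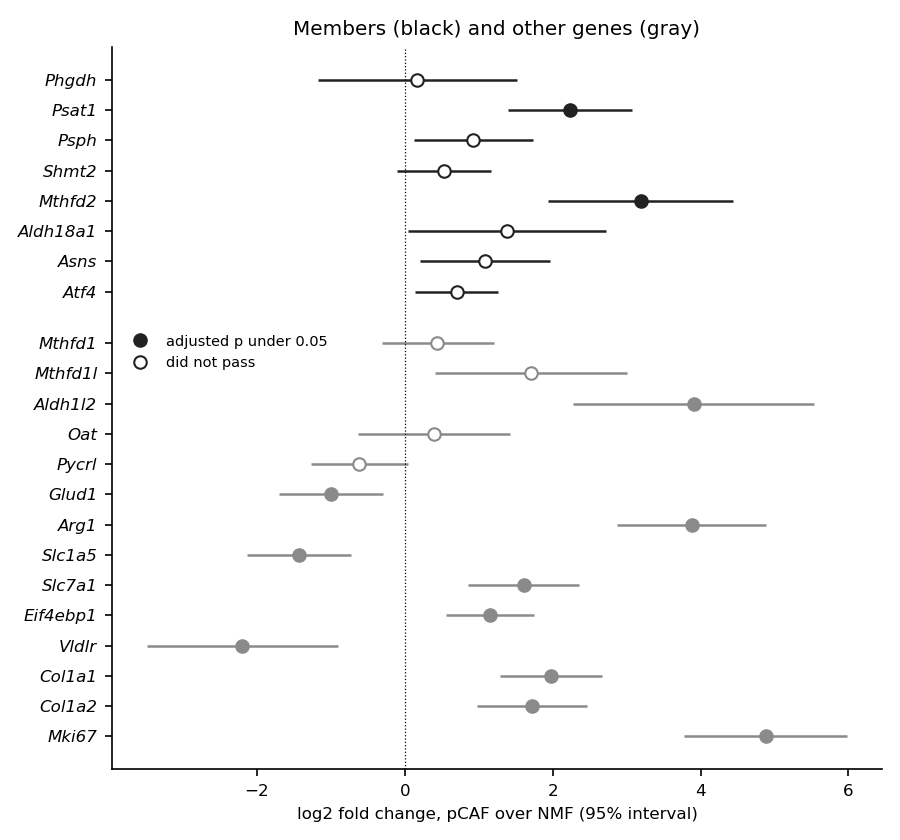
Fitted log2 fold change, pCAF over NMF, of the 8 tested members (black) and 14 other genes named in the text (gray), with 95% intervals as lines; filled points passed an adjusted p of 0.05 and the dotted line at 0 marks equal levels. Among the members, the intervals of Psat1 (1.39 to 3.07) and Mthfd2 lie farthest to the right, and that of Phgdh (-1.17 to 1.51) spans 0.

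Among 22 other genes of serine use and one-carbon folate metabolism, 12 were tested, 1 was higher, 0 were lower and 11 did not pass (median log2 fold change 0.42). Without both libraries that stood apart, 14 were tested, 5 were higher and 1 was lower. The gene that rose was Aldh1l2, the mitochondrial enzyme that oxidizes formyl folate to carbon dioxide. It was at 17.8, 40.0 and 49.9 CPM in pCAF and at 0.386, 0.422, 2.11 and 5.42 CPM in NMF, with no overlap. The fold was 15.0 (log2 3.91, SE 0.73; edgeR adjusted p = 0.00322), and without NMF replicate 4 the log2 fold change was 5.08. Its 3' end overlaps D10Wsu102e on the other strand. Mthfd1l, the mitochondrial formate-releasing enzyme, was at 7.76, 30.4 and 42.7 CPM in pCAF and at 13.1, 10.1, 5.28 and 4.86 CPM in NMF. Replicate 1 of pCAF lay among the NMF libraries, and the gene did not pass (fold 3.26, log2 1.71; edgeR adjusted p = 0.0519). Without that library it passed (log2 2.16; edgeR adjusted p = 0.00325), as it did with DESeq2 (adjusted p = 0.0223) and in the fit without a filter (edgeR adjusted p = 0.0414). Gcsh, of the glycine cleavage system, and Sfxn1, the mitochondrial serine carrier, did not pass either (edgeR adjusted p = 0.285 and 0.663). Cth, which makes cysteine from cystathionine, was under the filter with 4, 23 and 26 counts in pCAF and 1, 2, 3 and 0 in NMF. In the fit without a filter it was called higher (edgeR adjusted p = 0.00658).

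The proline arm began with Aldh18a1, the synthase of the first committed step from glutamate (chr19:40550257-40588463, minus strand). It was at 16.6, 11.3 and 8.87 CPM in pCAF and at 3.48, 1.27, 4.93 and 8.40 CPM in NMF. The groups do not overlap, but pCAF replicate 3 and NMF replicate 4 lie side by side. The values rest on 3 to 45 counts per library. The fold was 2.61 and did not pass (log2 1.38, SE 0.60, 95% interval 0.04 to 2.72; edgeR adjusted p = 0.114). Without NMF replicate 4 it passed (log2 1.92; edgeR adjusted p = 0.0412).

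Pycr1, the mitochondrial reductase of the last step (chr11:120635712-120643769, minus strand), had no count in 6 of the 7 libraries. Its counts were 0, 3 and 0 in pCAF and 0 in each NMF library. A count of 0 over a group allows a level of up to 0.228 CPM in NMF, where 3 counts set the limit, and the 3 counts in pCAF stand at that floor (0.557 CPM), so no fold is given. The limit covers counting error only. The end of 1 of its 5 coding transcripts also matches 42 other genes. The log2 ratio of its counts to those of Prodh, the first enzyme of proline breakdown, is set by the value added to each count: the groups differed by 4.10 with 0.5 added and by 2.82 with 2 added. No conclusion is therefore drawn from a test of that ratio. Its p-value (exact two-sided permutation p = 0.0571) still entered the adjustment over 3 ratios. There it tied with that of Mthfd2 to Mthfd1, and the adjusted 0.0857 of that ratio depends on it. Prodh itself had 0, 5 and 4 counts in pCAF and 10, 23, 9 and 79 in NMF.

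Pycrl, a cytosolic reductase of that step now named Pycr3, was at 23.6 ± 1.66 CPM in pCAF (SD, n = 3) and 36.3 ± 6.87 CPM in NMF (SD, n = 4), and did not pass (log2 -0.62; edgeR adjusted p = 0.147). It was lower in pCAF without both libraries that stood apart (log2 -0.73; edgeR adjusted p = 0.0147).

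Of 23 listed symbols of proline breakdown and of glutamate, glutamine, ornithine and aspartate metabolism, 22 were in the table, which holds Pycr3 as Pycrl. Of these, 16 were tested. In pCAF 1 was higher, 1 was lower and 14 did not pass (median log2 fold change 0.08); without both libraries that stood apart, 18 were tested, 3 were higher and 4 lower. Arg1, which frees ornithine from arginine, was at 102.6, 58.6 and 75.9 CPM in pCAF and at 9.27, 6.76, 3.17 and 2.80 CPM in NMF. Every pCAF library was several times above every NMF library (fold 14.7; edgeR adjusted p = 2.504e-04). Glud1, which interconverts glutamate and 2-oxoglutarate, was at 68.8, 155.5 and 144 CPM in pCAF and at 294, 223, 251 and 213 CPM in NMF, and was 2.00-fold lower (edgeR adjusted p = 0.0391). That call was lost without pCAF replicate 2 or 3, or without NMF replicate 1, 2 or 3 (edgeR adjusted p from 0.0504 to 0.103), and with the replicate block (0.0811). Oat, which turns ornithine toward proline, did not pass (387 ± 246 CPM in pCAF, SD, n = 3, and 294 ± 30.4 CPM in NMF, SD, n = 4; edgeR adjusted p = 0.566). Its level was 102.6 CPM in pCAF replicate 1 and 525 and 533 CPM in the others. Without replicate 1 it was higher in pCAF (log2 0.84; edgeR adjusted p = 0.00890), and without both libraries likewise (log2 0.78; edgeR adjusted p = 7.446e-04). Glul, glutamine synthetase, did not pass and took its high pCAF mean from replicate 1 (205, 33.2 and 36.0 CPM; NMF 89.9 ± 29.4 CPM, SD, n = 4; edgeR adjusted p = 0.978). Without that library it was lower in pCAF (log2 -1.37; edgeR adjusted p = 0.00883).

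Asns, asparagine synthetase (chr6:7675169-7693254, minus strand), was at 26.6, 89.6 and 79.8 CPM in pCAF and at 30.5, 27.0, 27.1 and 38.3 CPM in NMF. Replicate 1 of pCAF was below every NMF library, and the other pCAF libraries were above all of them. The fold was 2.12 and did not pass (log2 1.08, SE 0.39; edgeR adjusted p = 0.0644). It passed with DESeq2 (adjusted p = 0.0406), a test that called 16.9% of genes higher. Without pCAF replicate 1 the fold was 2.73 (edgeR adjusted p = 0.00113).

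Atf4 (chr15:80255184-80257541, plus strand) was at 1178, 761 and 776.5 CPM in pCAF and at 529, 595, 579 and 530.2 CPM in NMF. No libraries of the groups overlapped. The means were 905 ± 237 (SD, n = 3) and 558 ± 33.8 CPM (SD, n = 4), and the fold of 1.62 did not pass (log2 0.70, SE 0.26; edgeR adjusted p = 0.0651). It passed with DESeq2 (adjusted p = 0.0272). Without both libraries that stood apart the fold was 1.35 (edgeR adjusted p = 0.0356). These are message levels; the ATF4 protein was not measured here.

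Replicate 1 of pCAF was the highest of its group in Psat1, Shmt2, Aldh18a1 and Atf4 and the lowest in Phgdh, Psph, Mthfd2 and Asns. The members therefore did not shift together in that library.

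**Figure D3:**
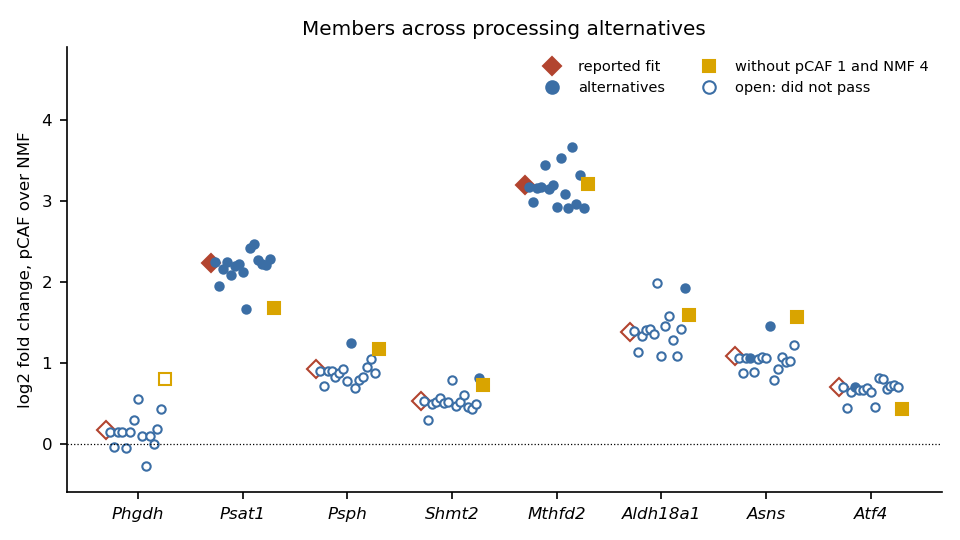
Fitted log2 fold change of each tested gene, pCAF over NMF, under the reported fit (diamond), each alternative (circles) and without pCAF replicate 1 and NMF replicate 4 (square); filled points passed an adjusted p of 0.05. Psat1 and Mthfd2 are filled in each, and Phgdh falls on both sides of 0.

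Of 22 integrated stress response kinases and genes of the ATF4 pathway, 21 were tested, 1 rose, 1 fell and 19 did not pass (median log2 fold change 0.10). Without both libraries that stood apart, 5 of 21 were higher and 7 lower, and the median was -0.19. Eif4ebp1, a translation repressor, was at 365, 228 and 215 CPM in pCAF and at 112.0, 112.7, 111.9 and 146.8 CPM in NMF, with no overlap (fold 2.23; edgeR adjusted p = 0.00972). Vldlr, a lipoprotein receptor, was lower at 3.35 ± 2.01 CPM against 15.4 ± 5.66 CPM (SD, n = 3 and n = 4; 4.60-fold; edgeR adjusted p = 0.0177, and 0.0598 with the replicate block; log2 -2.20, and -1.54 without both libraries that stood apart). Atf3 and Atf5, related transcription factors, did not pass (edgeR adjusted p = 0.472 and 0.956). Atf3 was at 112 CPM in NMF replicate 4 and at 687 to 1102 CPM in the other NMF libraries; its log2 fold change was -0.68, and without both libraries that stood apart it was lower in pCAF (log2 -1.70; edgeR adjusted p = 3.753e-06). Fgf21, a secreted factor of the list, was under the filter with 1, 10 and 8 counts in pCAF and 0, 0, 2 and 0 in NMF. In the fit without a filter it was called higher (edgeR adjusted p = 0.0479).

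Among 15 neutral and cationic amino acid transporters, 9 were tested, 1 rose, 1 fell and 7 did not pass (median log2 fold change -0.18); without both libraries that stood apart, 11 were tested, 4 were higher and 2 lower. Slc7a1, which imports arginine and lysine, was at 41.0, 40.0 and 34.9 CPM in pCAF and at 14.3, 13.9, 15.1 and 7.66 CPM in NMF (fold 3.05; edgeR adjusted p = 0.00575). Slc1a5, which imports glutamine and other neutral amino acids, was lower at 119, 91.8 and 76.5 CPM against 231, 189, 229.5 and 383 CPM (2.69-fold; edgeR adjusted p = 0.00780). Both differed with no overlap between the groups, in opposite directions. Slc38a2 and Slc3a2 did not pass (edgeR adjusted p = 0.633 and 0.678). Without both libraries that stood apart, Slc3a2 was lower in pCAF (log2 -0.61, against -0.19 with all libraries; edgeR adjusted p = 0.0105).

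**Figure D4:**
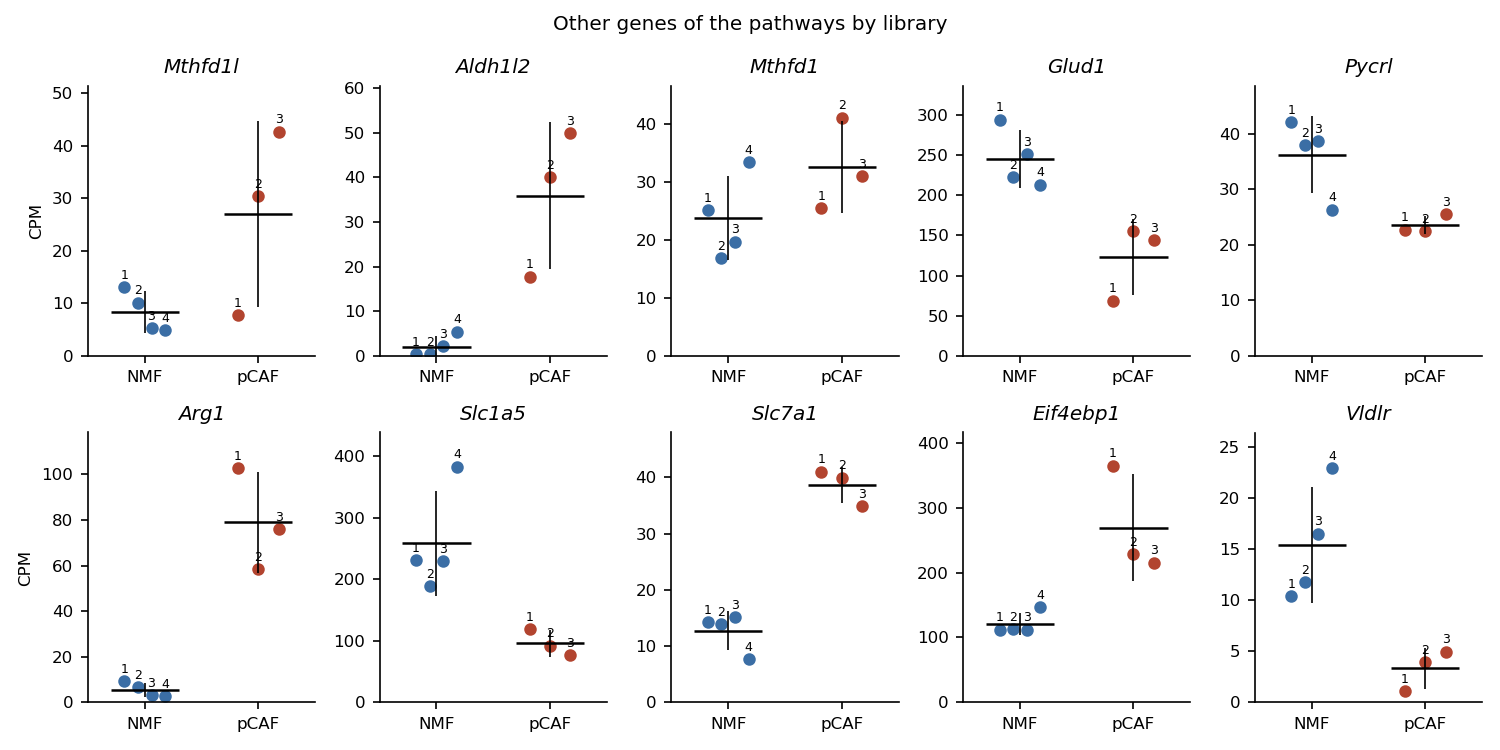
Level in CPM by library of 10 other genes of these pathways, 3 pCAF and 4 NMF; each point is 1 library, numbered by replicate, with horizontal lines at group means and vertical lines for the SD. Aldh1l2, Arg1, Slc7a1 and Eif4ebp1 lie higher and Slc1a5 and Vldlr lower in pCAF with no overlap, as does Glud1, while Mthfd1l overlaps through pCAF replicate 1.

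Fibrillar collagen chains and the enzymes that hydroxylate their proline were higher in pCAF in most cases. Of 16 such genes, 14 were tested, 11 rose, 0 fell and 3 did not pass (median log2 fold change 1.57). In the fit without both libraries that stood apart, 10 of 14 were higher and 0 lower. Col1a1, a chain of type I collagen, was at 28180 ± 7516 CPM in pCAF (SD, n = 3) and 7186 ± 1726 CPM in NMF (SD, n = 4), 3.92-fold (edgeR adjusted p = 0.00126). Its partner Col1a2 was 3.30-fold higher (edgeR adjusted p = 0.00379). The prolyl hydroxylase subunits P4ha3 and P4ha2, which modify proline within collagen, were 30.8-fold and 3.32-fold higher (edgeR adjusted p = 3.695e-05 and 8.243e-04). The minor fibrillar chains Col5a2 and Col11a1 were 14.7-fold and 59.5-fold higher; for Col11a1 the log2 fold change was 5.89, and 7.06 without NMF replicate 2. P3h3 and Crtap, of the prolyl 3-hydroxylase complex, did not pass (edgeR adjusted p = 0.520 and 0.840).

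Set per 10000 Col1a1 counts, the members other than Phgdh, Shmt1 and Pycr1 compared differently between the groups than in CPM. Col1a1 itself was 3.92-fold higher in pCAF, so a member with a smaller fold falls in this quotient by arithmetic. Shmt2 was at 45.98, 25.3 and 25.45 per 10000 Col1a1 counts in pCAF and at 73.96, 91.1, 59.4 and 106 in NMF, so every pCAF library was lower. Asns was at 21.9 ± 7.33 against 44.2 ± 9.66, Psph at 19.1 ± 4.38 against 42.7 ± 13.3 and Atf4 at 357.5 ± 207 against 818 ± 241 (SD, n = 3 and n = 4), also with every pCAF library lower. Psat1 was at 22.4 ± 19.2 against 16.7 ± 4.59 and Aldh18a1 at 4.87 ± 3.07 against 5.90 ± 3.21, both overlapping. Mthfd2 alone had a pCAF mean above the NMF mean by more than the SD of either group, 19.3 ± 5.55 against 8.90 ± 6.49, and its libraries overlapped too (14.02 in pCAF replicate 1, 18.04 in NMF replicate 1). These quotients are a description with no test.

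**Figure D5:**
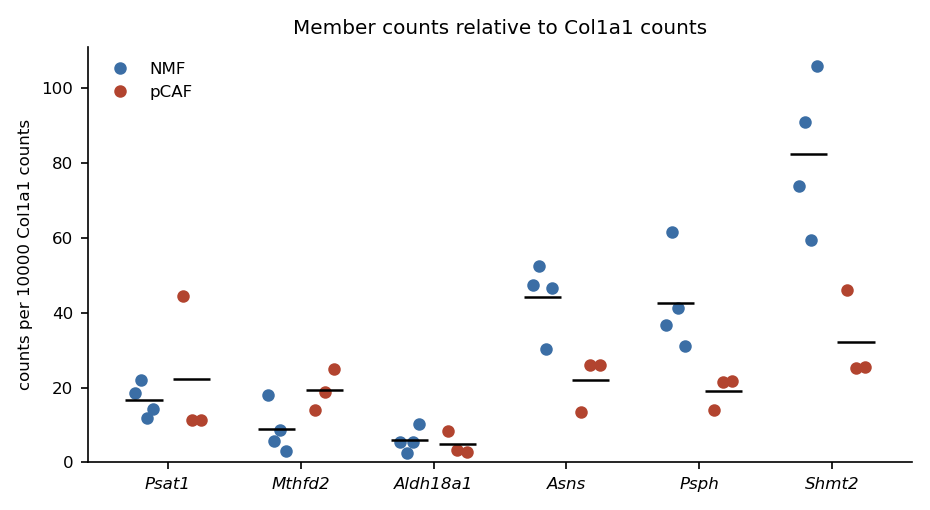
Counts of 6 of the genes per 10000 Col1a1 counts by library, 3 pCAF and 4 NMF; each point is 1 library and horizontal lines mark group means. Shmt2, Asns and Psph lie lower in every pCAF library, and Psat1, Mthfd2 and Aldh18a1 overlap.

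Proliferation genes, like the 2 members that passed, were higher in pCAF in most cases. Of 15, 14 were tested, 9 rose, 0 fell and 5 did not pass (median log2 fold change 2.46). With both libraries left out, 12 of 14 were higher and 0 lower. Their summed level was 730 to 1239 CPM in pCAF and 322 to 483 CPM in NMF. Among the pCAF libraries it was lowest in replicate 1, where Mthfd2 was also lowest but Psat1 was highest. The part of these genes in the rise of Mthfd2 and Psat1 was not tested. Mki67, a protein of cycling cells, was 29.5-fold higher (edgeR adjusted p = 1.13e-04), and Mcm6, of the replicative helicase, 4.99-fold (edgeR adjusted p = 0.00452). The Mki67 fold rests on 3, 9, 5 and 4 counts in NMF. Birc5, of the chromosomal passenger complex, and Rrm2, of ribonucleotide reductase, were 13.0-fold and 9.08-fold higher, with log2 fold changes of 3.70 and 3.18 that became 4.46 and 3.83 without NMF replicate 3. Pcna and Tubb4b did not pass (edgeR adjusted p = 0.362 and 0.0598). Tubb4b passed with DESeq2 (adjusted p = 0.0135), and with edgeR without pCAF replicate 1 (log2 0.76; adjusted p = 0.0127), without NMF replicate 4 (0.0349) and without both (4.158e-04).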

How the data were processed

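The deposited table held raw counts per gene symbol for the 7 libraries; per the labels' protocols these were 3' end libraries. The submitters' processing notes name the mm10 build with STAR 2.4.2a, HTSeq and bcl2fastq; for strandedness and molecular identifiers, nothing was given in the sources used here. Here filterByExpr kept 10535 genes, TMM factors scaled the libraries, and CPM was computed from effective library sizes. The groups were compared with edgeR 4.0.16 in R 4.3.3 (robust quasi-likelihood F test, two-sided, Benjamini-Hochberg over all tested genes, threshold 0.05). DESeq2 1.42.0 and limma 3.58.1 were used as alternatives. Only the main edgeR fit was run on simulated counts with known fold changes. Those counts were drawn with a common spread setting for all genes and libraries. Ratios used counts plus 0.5. Positions came from GENCODE M21; transcript ends were compared by blastn 2.17.0.

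The members, gene lists and alternatives were chosen with earlier results of these data known. The text names the members, up to 4 called genes per list by adjusted p, up to 2 others by level, and Col1a1; Mthfd1, Mthfd1l, Cth, Fgf21, Prodh, Pycrl, Ndufa4l2 and Col1a2 were added after their values were seen. The motifs were chosen likewise. Nothing in the labels says that a replicate number marks a shared animal or day. Correlations of same-numbered deviations were -0.0945, 0.0817 and -0.0111. With so few libraries they cannot decide whether the numbers pair the groups. A gene of the lists is not reported here; it stayed in the fits and counts.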

Additional observations from a re-analysis of the deposited data

Results flagged for a closer look

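Within the NMF group, 50 items were checked, named genes and summed marker lists. The highest or lowest library lay far from the other 3 in 6 of them, all genes. The cutoff flags about 1 in 20 of independent, normally spread items. These items share the same libraries, so the 6 cannot be read as more than chance gives. Shmt2 was at 87.03 CPM in NMF replicate 4, with the others at 46.9 to 53.2. Eif4ebp1 was at 146.8 CPM in NMF replicate 4, with the others at 111.9 to 112.7. Slc7a1 was at 7.657 CPM in NMF replicate 4, with the others at 13.9 to 15.1. Crtap was at 174.6 CPM in NMF replicate 4, with the others at 27.5 to 46.5. Col11a1 was at 2.956 CPM in NMF replicate 2, with the others at 0.352 to 0.386. Rrm2 was at 13.73 CPM in NMF replicate 3, with the others at 3.48 to 5.07. The pCAF group, with 3 libraries, was not checked in this way.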

How the results depend on the processing

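The count of members higher in pCAF was 2 in the main analysis, 4 with DESeq2, from 2 to 4 with each library left out in turn (4 without pCAF replicate 1 and 4 without NMF replicate 4) and 7 without both libraries that stood apart; it was 2 in the others, and the count lower was 0 in all. The fit without both libraries was chosen after seeing the data. With the replicate block, Psat1 (log2 2.12, edgeR adjusted p = 0.0157) and Mthfd2 (2.92, edgeR adjusted p = 0.0250) still passed. Nothing in the labels pairs the samples by number, and the block called 978 genes higher and 1023 lower. Library totals in place of TMM moved the median over all genes to -0.26 (log2) and the calls to 1121 higher and 1902 lower, against 1503 and 1491. Directions that turned were of results that did not pass, and the cause was not tested. The log2 ratio of Shmt2 to Shmt1 was 0.35 with the replicate block and ran from -0.73 to 0.35 with each library left out. For Phgdh the log2 fold change was -0.035 with library totals, -0.055 with limma-voom and -0.27 to 0.55 with each library left out. For Sfxn1 it was -0.031 with library totals, -0.44 without both libraries and -0.45 to 0.55 with each left out. For Glul it was -0.29 with library totals, -0.063 with upper quartile scaling and -0.45 with limma-voom. It was -0.0036 without a filter and -0.61 with the replicate block, and ran from -1.37 to 0.42 with each library left out. The -1.37, without pCAF replicate 1, passed the test (edgeR adjusted p = 0.00883). So did the -1.52 without both libraries (edgeR adjusted p = 5.799e-05). For Atf5 it was 0.077 with limma-voom, 0.38 with the replicate block, 0.27 without both and -0.21 to 0.40 with each left out. For P3h3 it was -0.047 to 0.81 with each left out. For Crtap it was -0.067 with library totals and -0.45 to 1.28 with each left out. Depth limits Phgdh, Shmt1, Aldh18a1 and Pycr1, all at 45 counts or fewer per library. Mthfd2 had 30, 7, 22 and 14 counts in NMF, so its NMF level is limited by depth too. Phgdh and Pycr1 also have transcript ends that match other genes.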
